A study of Mus musculus with 4 samples.

Results

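The chemokine and formyl peptide receptors are the genes with which leukocytes read attractant gradients in an injured tissue. The 9 receptors described here, Ccr1, Ccr2, Ccr7, Ccrl2, Cx3cr1, Cxcr2, Cxcr4, Fpr1 and Fpr2, were listed by gene symbol; no threshold on their levels was used, although the list was drawn up with earlier results of these data known. All 9 were found among the 27998 genes of each count table. Single-cell RNA-seq was run on CD45+ cells that magnetic beads had retained from the tibialis anterior muscle of male mice, 8 to 12 weeks old and on a C57BL/6 background, after injury with cardiotoxin, a snake toxin that kills muscle fibres. There were 4 libraries, 1 from control mice and 1 from mice labelled KO at 2 days after injury (dpi2), and 1 of each at 4 days (dpi4). Controls were Bach1 fl/fl littermates and the KO mice were Bach1 fl/fl Lyz2-Cre, so that both carried loxP sites around exon 4 of Bach1, a transcriptional repressor of haem and antioxidant genes. The Lyz2 promoter drove Cre in monocytes, macrophages and neutrophils, so lymphocytes and other cells of the KO mice were not the intended target. With 1 library per group there was no replicate of any comparison: no test was made, and every interval given here is a 95% interval that covers counting error only.

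Chemokine receptors and formyl peptide receptors are 7-transmembrane proteins that signal through inhibitory G proteins to the cytoskeleton. Ccr2 binds Ccl2, Ccl7 and Ccl12 and brings inflammatory monocytes out of the bone marrow and into tissue, while Cx3cr1, the receptor of fractalkine, marks patrolling monocytes and many tissue macrophages. Cxcr2 brings neutrophils to Cxcl1, Cxcl2, Cxcl3 and Ppbp, and Cxcr4 holds cells near sources of Cxcl12 and is known to accumulate on aged neutrophils. Ccr1 binds Ccl3, Ccl5, Ccl6 and Ccl9, and Ccrl2 is an atypical receptor that binds chemerin without signalling. Ccr7 takes maturing dendritic cells to lymph nodes along Ccl19 and Ccl21, whereas Fpr1 and Fpr2 sense formylated peptides of bacteria and mitochondria, and Fpr2 also annexin A1 and serum amyloid A.

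After filters on detected genes, mitochondrial reads and doublets, the libraries held 3433 to 5721 cells, with medians of 10716 to 15146 unique molecular identifiers (UMIs, 1 per captured transcript molecule) per cell. Ptprc, which encodes CD45, was detected in 89.9% to 95.1% of the cells. Pairs of libraries shared 2 to 14 cell barcodes. Bach1 over all cells stood at 189 counts per 1000000 UMIs (CPM) in the dpi2 control, 187 in dpi2 KO, 207 in the dpi4 control and 217 in dpi4 KO. Its level under the KO label was thus close to the control at dpi2, with overlapping intervals, and higher at dpi4. A count over the whole gene cannot show the loss of 1 exon and checks nothing about the deletion, and a genotype is given below only as a label.

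Cells were clustered jointly, without the receptors, and clusters were named from marker genes as neutrophil-like, monocyte-like, macrophage-like, type 1, type 2, mature and plasmacytoid dendritic-like, NK-like, T-like and B-like; the names are used below without the suffix. Macrophages numbered 1978 in the dpi2 control, 1084 in dpi2 KO, 3356 in the dpi4 control and 2708 in dpi4 KO. Monocytes numbered 2562, 1001, 43 and 55 in the same order, neutrophils 626, 785, 129 and 35, and type 2 dendritic cells 268, 181, 271 and 255. Most clusters within the macrophages and monocytes were largely of 1 library, so that genotype or time and cluster cannot be told apart there. The neutrophils comprised a cluster led by Siglecf, Hdc and Bcl2a1a, with 614 cells of the dpi2 control and 29 of dpi2 KO, and one led by Retnlg, Gm5483 and Stfa2l1, with 12 and 756 cells. At dpi4 the Siglecf cluster held 126 and 26 cells and the Retnlg cluster 3 and 9. A shallow cluster led by Pdcd1lg2, Il1f9 and Mirt1, with 91 and 525 cells at dpi2, stayed unnamed and is kept apart from the neutrophils.

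Levels are the summed UMIs of a class in a library as CPM of that class. A receptor is said to pass the size rule in a comparison of 2 libraries where the levels differed at least 2-fold, the ratio's interval did not reach 1, and at least 50 UMIs were counted over both. The rule was applied in neutrophils, monocytes, macrophages and type 2 dendritic cells, which made 36 receptor and class pairs per comparison.

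**Figure D1:**
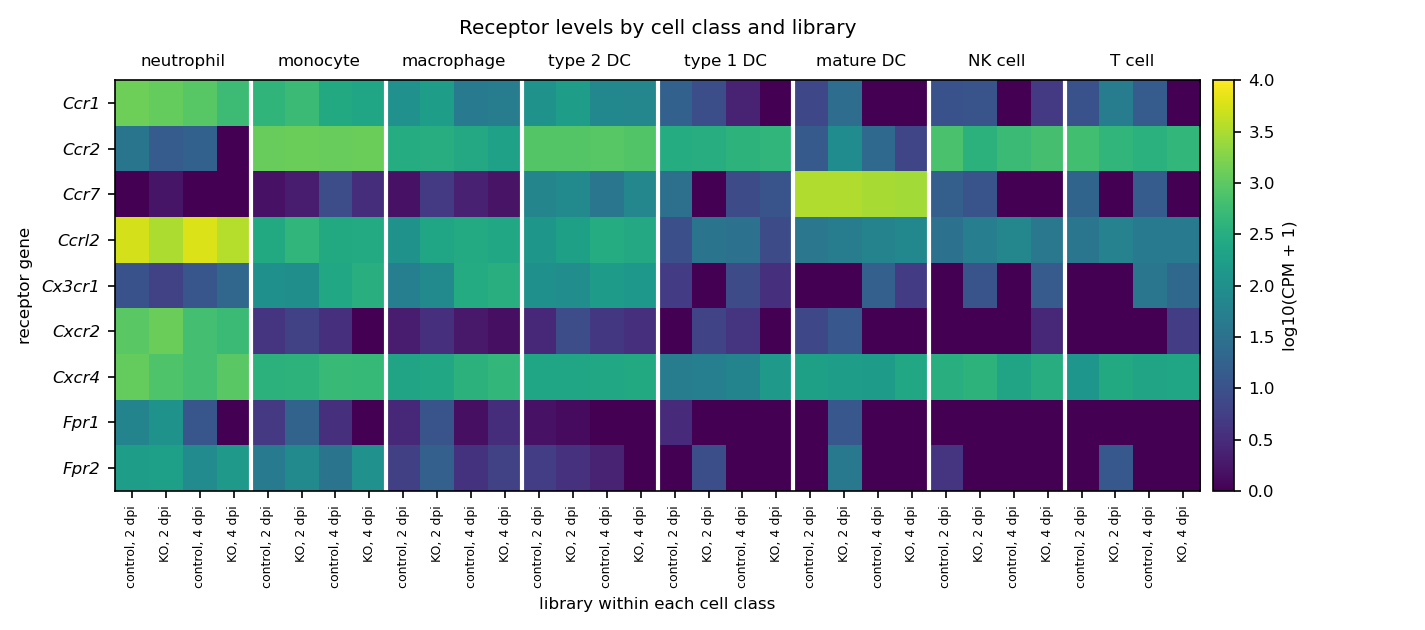
Level of each receptor (rows) as log10(CPM + 1), by colour, in each cell class and library (columns; DC, dendritic cell). Ccrl2 reached 6193 CPM in neutrophils of the dpi4 control, Ccr7 was high in mature dendritic cells of all 4 libraries, and Ccr2 stood between 825 and 1267 CPM in monocytes and type 2 dendritic cells.

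Ccr2 set monocytes apart from macrophages at both times, and Cx3cr1 set dpi4 apart from dpi2. Ccr2 (ENSMUSG00000049103) lies on chromosome 9 at 124101950 to 124113557 on the plus strand (GRCm38, GENCODE vM21). In monocytes Ccr2 stood at 1165 CPM in the dpi2 control, 1267 in dpi2 KO, 1195 in the dpi4 control and 1251 in dpi4 KO. With joint clustering these 4 levels lay close together: the ratio of dpi4 to dpi2 was 1.03 (0.934 to 1.12) in the control and 0.988 (0.905 to 1.08) under the KO label. With each library clustered by itself, the dpi4 control monocytes held 479.5 CPM in place of 1195 and dpi4 KO 1378, so the closeness at dpi4 depends on how the few dpi4 monocytes were named. Macrophages carried less, at 295, 304, 256 and 191 CPM, with a KO over control ratio of 1.03 at dpi2 and 0.748 (0.729 to 0.767) at dpi4, and dpi4 KO was the lowest of the 4. At Leiden resolution 2, which drew the macrophage class otherwise, the dpi2 log2 ratio was 1.19 in place of 0.04.

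Ccr2 was also found in dendritic cells and lymphocytes. Type 2 dendritic cells, which prime CD4+ T cells, held 843, 858, 929 and 825 CPM, second to monocytes in every library with joint clustering. NK cells held 711, 367, 525 and 652 CPM and T cells 607, 427, 353 and 452 CPM, both highest in the dpi2 control. Type 1 dendritic cells held 304 to 429 CPM, and neutrophils were the lowest of the classes named here with 34.4, 13.5, 16.2 and 0 CPM (52, 38, 6 and 0 UMIs; a count of 0 there allows up to 29.5 CPM). The neutrophil level at dpi2 was 2.54-fold lower in the library labelled KO (ratio 0.394, 0.252 to 0.610), the only receptor and class pair past the size rule downwards at that time, where 6.76% of 5707 genes scored in neutrophils also passed downwards. The neutrophils of these libraries were mostly of different clusters. Monocyte markers summed to 2102 CPM in neutrophils of the dpi2 control and to 1349 in dpi2 KO, and their part in the Ccr2 value was not tested. With TMM-scaled library sizes the log2 ratio of Ccr2 went from −1.34 to −0.97, short of the rule. That scaling shifted all neutrophil ratios at dpi2 by 0.38, where the median log2 ratio of all genes was −0.31. With the unnamed cluster added to the neutrophils the Ccr2 value was −0.76, also short of the rule. It did not pass as a mean over cells or with at least 200 UMIs either.

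Cx3cr1 (ENSMUSG00000052336; chromosome 9, 119901616 to 120069879, minus strand) was the receptor with the largest gain over time in macrophages. Its level there was 51.5 CPM in the dpi2 control, 79.9 in dpi2 KO, 285 in the dpi4 control and 320 in dpi4 KO, so that both dpi4 libraries lay above both dpi2 libraries. The dpi4 over dpi2 ratio was 5.54 (5.29 to 5.81) in the control and 4.0 (3.83 to 4.18) under the KO label, against 10.7% and 9.26% of all scored macrophage genes that passed the rule upwards. Monocytes showed the same order on far fewer cells at dpi4, with 101, 95.9, 244 and 327 CPM and ratios of 2.41 (1.94 to 2.95) and 3.41 (2.85 to 4.06). In monocytes 4.84% of genes passed upwards with time in the control and 5.3% under the KO label. Type 2 dendritic cells went from 99.5 and 91.1 CPM at dpi2 to 163 and 136 CPM at dpi4, short of 2-fold, and neutrophils stayed between 4.99 and 19.7 CPM. By dpi4, macrophages held 94.8% of the Cx3cr1 UMIs of the control library and 95.7% of those in its KO-labelled counterpart.

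Between the labels Cx3cr1 differed less than over time. In macrophages the KO over control ratio at dpi2 was 1.55 (1.46 to 1.65), and it was 1.12 (1.10 to 1.14) at the later time; monocytes had 0.946 (0.886 to 1.01) and then 1.34 (1.03 to 1.76). None of these passed the size rule.

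**Figure D2:**
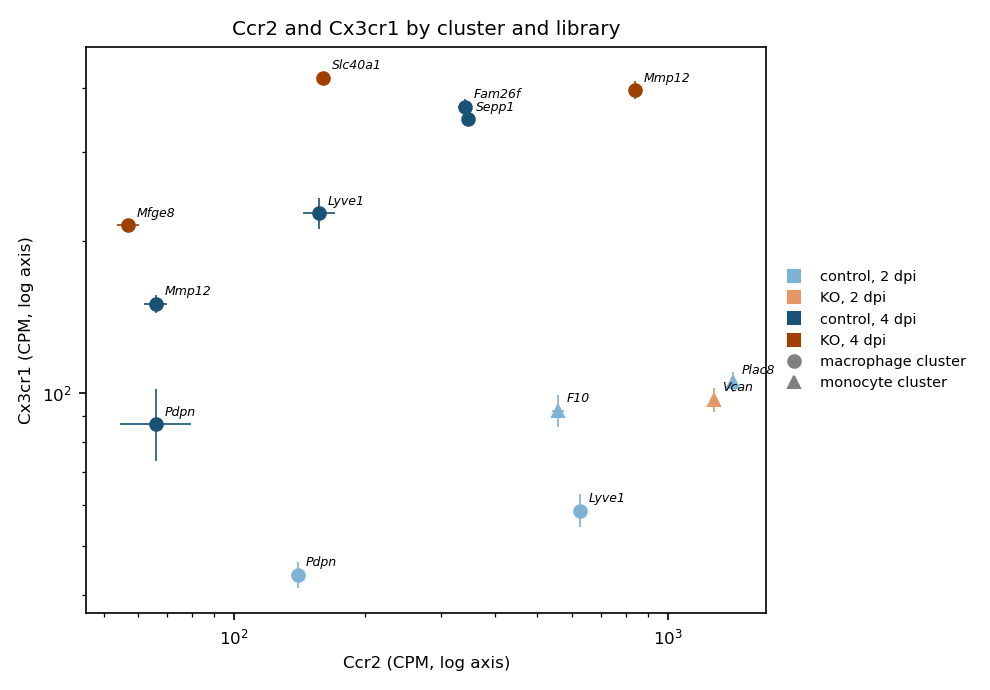
Ccr2 (x, CPM, log axis) against Cx3cr1 (y, CPM, log axis) in macrophage clusters (circles) and monocyte clusters (triangles) of each library, each named by its leading gene, with 95% Poisson intervals as bars, for the clusters reported here with at least 50 cells of the library. Monocyte clusters lie at the right with about 100 CPM of Cx3cr1, and the dpi4 macrophage clusters spread from the Mfge8 cluster (57.0 CPM of Ccr2) to the Mmp12 cluster of the KO-labelled library (842 CPM).

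The clusters within macrophages spread widely on both receptors. At dpi2, the Pdpn and Spp1 cluster of the control held 140 CPM of Ccr2 and 43.8 of Cx3cr1, and the Lyve1 cluster of the control, led also by the cell division genes Top2a and Birc5, 629 and 58.6. At dpi4, the Slc40a1, Vcam1 and Spic cluster of the KO-labelled library, named for an iron exporter, an adhesion molecule and a factor of iron-recycling macrophages, combined 161 CPM of Ccr2 with the highest Cx3cr1 level of the clusters shown, 420 CPM. The Mmp12 and H2-Eb1 cluster of the same library, rich in MHC class II genes, held 842 CPM of Ccr2 and 397 of Cx3cr1, and the Mfge8 cluster held 57.0 and 215. The Sepp1 cluster of the dpi4 control lay between them, with 346 and 348 CPM. Since each of these clusters was mostly of 1 library, their levels describe that library. Some of these clusters held cells of both times, and Cx3cr1 was higher at dpi4 within them: the dpi4 control held 226.9 CPM on 153 cells in the Lyve1 cluster and 86.8 CPM on 73 in the Pdpn cluster, and dpi2 KO held 58.5 CPM on 32 cells in the Mfge8 cluster. The Sepp1 cluster was the exception, with 361 CPM on 17 cells of the dpi2 control.

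Counting both receptors in the same cell gave the same picture. With each cell thinned to 2000 UMIs, so that depth was equal, 3.28% of macrophages of the dpi2 control, 5.36% of dpi2 KO, 13.7% of the dpi4 control and 12.1% of dpi4 KO had a UMI of both. Macrophages with Cx3cr1 alone made up 4.32%, 5.55%, 21.1% and 28.0%, and those with Ccr2 alone 26.9%, 28.0%, 16.6% and 10.1%. The share with Ccr2 alone was thus lowest, and that with Cx3cr1 alone highest, in dpi4 KO. The share of macrophages with any Cx3cr1 UMI was 7.60%, 10.9%, 34.8% and 40.2% (unthinned 22.3%, 33.4%, 69.4% and 71.2%). T cells, in which Cx3cr1 is scarce, reached at most 6.25% after thinning and NK cells at most 4.76%. The macrophages of dpi2 KO were the deepest, with a median of 26402.5 UMIs against 17950.5 in the dpi2 control, 16244.5 in the dpi4 control and 15267.5 in dpi4 KO.

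In neutrophils the summed level of Cxcr2 was higher at dpi2 than at dpi4. Cxcr2 (ENSMUSG00000026180; chromosome 1, 74153989 to 74161246, plus strand) stood in neutrophils at 959 CPM in the dpi2 control, 1241 in dpi2 KO, 642 in the dpi4 control and 531 in dpi4 KO. Its level was therefore higher in both dpi2 libraries than at dpi4. The difference passed the size rule under the KO label, 2.34-fold lower at dpi4 (ratio 0.428, 0.321 to 0.559), and not in the control (ratio 0.669); as a mean over cells or with the unnamed cluster added it did not pass under the KO label either. The neutrophils of dpi2 KO were mostly of the Retnlg cluster and those of dpi4 KO mostly of the Siglecf cluster; within the latter the KO-labelled libraries held 1055 CPM (860.1 to 1280.5) on 29 cells at dpi2 and 390 CPM (265 to 553) on 26 at dpi4. Whether the change with time differed between the labels was not tested, and the dpi4 neutrophils numbered only 129 and 35. At dpi2 the KO over control ratio was 1.29 (1.22 to 1.38), and its direction was not kept when the unnamed cluster was added (log2 ratio 0.37 became −0.07). Neutrophils held 91.1% and 88.4% of all Cxcr2 UMIs at dpi2, and neither T nor NK cells had a UMI of it after thinning. Thinning to 2000 UMIs left out 166 of 626, 53 of 785, 10 of 129 and 3 of 35 neutrophils as too shallow, and of those that remained 70.7%, 81.6%, 63.9% and 46.9% had a UMI of Cxcr2 (unthinned 72.8%, 89.9%, 74.4% and, in dpi4 KO, 21 of 35 cells, so that the unthinned control share was not lower at dpi4). Thinned to 1000 UMIs, which left out at most 7 neutrophils a library, the shares were 50.7%, 64.4%, 42.5% and 42.4%, with no gap between the labels at dpi4.

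Cxcr4 (ENSMUSG00000045382; chromosome 1, 128588199 to 128592293, minus strand) was detected in every class of the map, and in neutrophils it stood at 1123, 798, 642 and 943 CPM. The KO-labelled library was lower than the control at dpi2 (0.711, 0.667 to 0.758) and higher at dpi4 (1.47, 1.15 to 1.87), neither past the size rule. Macrophages moved with time: 217 CPM in the dpi2 control, 253 in dpi2 KO, 372 in the dpi4 control and 450 in dpi4 KO. Here too both dpi4 libraries exceeded both dpi2 libraries, by 1.71-fold (1.67 to 1.76) in the control and 1.78-fold (1.73 to 1.82) under the KO label, short of the 2-fold rule. Within them the Slc40a1 and Spic cluster held 631 CPM, the Sepp1 cluster 461 and the dpi2 Lyve1 cluster 110. Monocytes held 366 to 501 CPM and type 2 dendritic cells 225 to 265 CPM.

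Cxcr2 and Cxcr4 were often found in the same neutrophil. Among the neutrophils with at least 2000 UMIs, 52.0% of those of the dpi2 control and 48.9% of dpi2 KO had a UMI of both after thinning, and 32.8% and 34.4% at dpi4. Cells with Cxcr2 alone were 18.7% and 32.7% at dpi2, and cells with Cxcr4 alone 19.3% and 12.6%. In the unnamed cluster led by Pdcd1lg2 the balance was the opposite, since 42.3% of its cells in dpi2 KO had Cxcr4 alone and 10.1% had both; in the dpi2 control 1.32% of its 76 thinned cells had both.

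**Figure D3:**
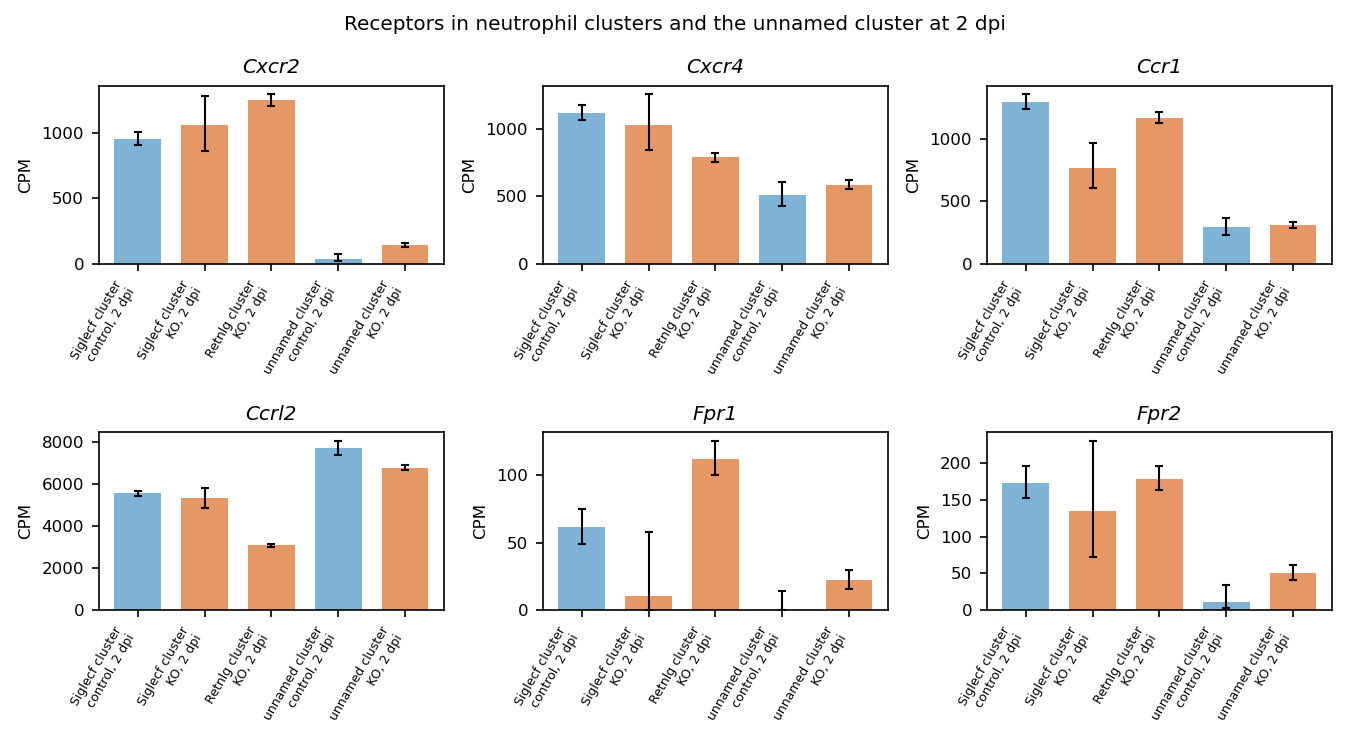
Level (CPM, linear axes from 0) of 6 receptors at dpi2 in the Siglecf and Retnlg neutrophil clusters and the unnamed cluster, by library; bars are the level and whiskers its 95% Poisson interval. Ccrl2 was lowest in the Retnlg cluster (3093 CPM) and highest in the unnamed cluster (7708 and 6781 CPM), while Cxcr2 and Ccr1 were lowest in the unnamed cluster.

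Ccrl2 had by far its highest level in neutrophils and in the unnamed cluster. It lies on chromosome 9 at 111054486 to 111057519 on the minus strand (ENSMUSG00000043953). Its start region is printed here as RefSeq gives it for GRCm38.p6, because of the 8 members with a RefSeq window it was the only one with a match to a BACH1-related motif. The letters searched on both strands were TGAGTCA, held by 5.2% of 32851 windows of 300 bases, the longer Maf recognition element that contains it, held by 0.155%, and TGACNNNGC, the core of the antioxidant response element, held by 12.4%. The last also overlaps the Maf recognition element read on the other strand. The window is chr9:111057469-111057768 on the minus strand, 5′ to 3′, and the capitals mark the match, which reads TGACNNNGC on the other strand and begins 42 bases before the annotated start. RefSeq gives 3 start windows for Ccrl2, and the other 2, which lie further downstream, held no match. A match is a string of letters and not a shown binding site.
Ccrl2: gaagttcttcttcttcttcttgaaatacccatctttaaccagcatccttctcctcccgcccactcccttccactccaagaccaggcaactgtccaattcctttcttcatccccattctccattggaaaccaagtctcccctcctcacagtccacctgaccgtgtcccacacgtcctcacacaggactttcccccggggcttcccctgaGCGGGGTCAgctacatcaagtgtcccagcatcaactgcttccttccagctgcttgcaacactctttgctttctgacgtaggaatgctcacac

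Ccrl2 in neutrophils stood at 5534 CPM in the dpi2 control, 3170 in dpi2 KO, 6193 in the dpi4 control and 3646 in dpi4 KO. At both times the library labelled KO was thus the lower one, 1.75-fold at dpi2 (ratio 0.573, 0.556 to 0.590) and with a ratio of 0.589 (0.526 to 0.657) at dpi4, short of the size rule. The cluster makeup differed between these libraries. Within the Siglecf cluster alone the levels were 5565, 5315, 6290 and 3846 CPM, so that at dpi2 the libraries were close there, while the Retnlg cluster, nearly all of dpi2 KO, held 3093 CPM. The unnamed cluster held 7708 CPM in the dpi2 control and 6781 in dpi2 KO, and 37.4% of all Ccrl2 UMIs of the dpi2 KO library. With that cluster counted among the neutrophils, the dpi2 log2 ratio was −0.33 in place of −0.80 and the dpi4 one −1.02 in place of −0.76.

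In macrophages Ccrl2 went the other way at dpi2. The levels were 113 CPM in the dpi2 control, 234 in dpi2 KO, 280 in the dpi4 control and 243 in dpi4 KO, and the dpi2 control was the 1 library that stood low. The KO over control ratio was 2.07 (1.99 to 2.15) at dpi2 and 0.869 at dpi4, and the dpi4 over dpi2 ratio 2.48 (2.40 to 2.56) in the control and 1.04 under the KO label; the dpi2 label ratio and the control time ratio share the dpi2 control. The dpi2 value lay close to the 2-fold limit, and fell short of it with at least 200 genes per cell, at Leiden resolution 2, as a mean over cells, or with monocytes and macrophages pooled (log2 ratio 0.73 in place of 1.05). Type 2 dendritic cells of the control held 129 CPM at dpi2 and 303 at dpi4 (2.35-fold, 2.10 to 2.64, where 3.84% of genes passed upwards), against 188 and 259 CPM under the KO label. A sub-cluster led by Retnla, with 86 of its 93 cells in the dpi4 control, held 434 CPM, and without it the log2 ratio went from 1.24 to 0.76. Monocytes held 269, 425, 270 and 274 CPM.

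Ccr1 (ENSMUSG00000025804; chromosome 9, 123962124 to 123968692, minus strand, with 133257 bases between it and Ccr2) was lower at dpi4 than at dpi2 in each of the 4 compared classes. In neutrophils it stood at 1301 CPM in the dpi2 control, 1153 in dpi2 KO, 910 in the dpi4 control and 550 in dpi4 KO, and in monocytes at 413, 538, 270 and 224 CPM. Macrophages held 105, 168, 45.5 and 47.9 CPM and type 2 dendritic cells 108, 173, 72.1 and 69.5 CPM. Of the 4 classes neutrophils were highest and monocytes second in every library, and macrophages and type 2 dendritic cells could not be told apart at dpi2. The lower level at dpi4 passed the size rule in macrophages of both labels (2.30-fold in the control and 3.51-fold under the KO label). Under the KO label it also passed in neutrophils (2.10-fold), monocytes (2.40-fold) and type 2 dendritic cells (2.49-fold). At Leiden resolution 2 the macrophage value of the control did not pass. The neutrophil value did not pass as a mean over cells or with the unnamed cluster added, and it compares different clusters; within the Siglecf cluster the KO-labelled libraries held 765 CPM (601 to 961) on 29 cells at dpi2 and 339 CPM (224 to 494) on 26 at dpi4. At dpi2 Ccr1 was higher in the library labelled KO by 1.61-fold (1.54 to 1.67) in macrophages, 1.60-fold (1.40 to 1.83) in type 2 dendritic cells and 1.30-fold in monocytes, none past the rule. At Leiden resolution 2 the macrophage value at dpi2 did pass. In neutrophils the ratio was 0.887 (0.838 to 0.938), and its direction flipped with TMM-scaled library sizes (log2 ratio −0.17 became 0.20).

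Fpr1 differed several-fold between the labels in macrophages at both times and in monocytes at dpi2, and Fpr2 in macrophages at dpi2. Fpr1 (ENSMUSG00000045551) and Fpr2 (ENSMUSG00000052270) are neighbours on chromosome 17, Fpr1 at 17876471 to 17883940 on the minus strand and Fpr2 at 17887824 to 17893952 on the plus strand, with 3883 bases between them. Their start regions thus face each other, and they are printed for that reason as RefSeq gives them (GRCm38.p6), Fpr1 at chr17:17883890-17884189 on the minus strand and Fpr2 at chr17:17887574-17887873 on the plus strand, both 5′ to 3′. Neither window held any of the 3 motifs, and no letter is in capitals.
Fpr1: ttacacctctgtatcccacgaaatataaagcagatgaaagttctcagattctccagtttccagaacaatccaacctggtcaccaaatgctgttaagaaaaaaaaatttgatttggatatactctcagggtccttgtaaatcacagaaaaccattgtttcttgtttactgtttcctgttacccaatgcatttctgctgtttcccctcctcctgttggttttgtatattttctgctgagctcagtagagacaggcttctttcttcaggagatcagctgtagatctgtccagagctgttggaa
Fpr2: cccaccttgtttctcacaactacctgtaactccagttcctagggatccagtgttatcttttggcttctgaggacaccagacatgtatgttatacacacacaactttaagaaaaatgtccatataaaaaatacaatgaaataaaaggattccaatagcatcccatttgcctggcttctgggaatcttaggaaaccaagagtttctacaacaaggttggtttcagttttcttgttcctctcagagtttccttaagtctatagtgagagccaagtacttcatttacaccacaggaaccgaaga

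Fpr1 had its highest level in neutrophils at dpi2. In neutrophils it stood at 62.1 CPM in the dpi2 control, 109 in dpi2 KO, 10.8 in the dpi4 control and 0 in dpi4 KO (94, 305, 4 and 0 UMIs), with fewer counts at dpi4. The dpi4 level was 5.74-fold lower in the control (ratio 0.174, 0.0465 to 0.461), where 6.72% of neutrophil genes passed downwards, and at least 3.68-fold lower under the KO label, reading the 0 as 3 counts in that library. At dpi2 the KO over control ratio was 1.75 (1.38 to 2.23), and the level within the Retnlg cluster of that library was 112 CPM, against 61.3 CPM within the Siglecf cluster of the control.

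Macrophages and monocytes of the dpi2 KO library held more Fpr1 than those of the control. Macrophage levels were 1.90 CPM in the dpi2 control, 9.83 in dpi2 KO, 0.467 in the dpi4 control and 2.36 in dpi4 KO (72, 296, 29 and 113 UMIs), and the KO-labelled library was the higher at each time. The ratio was 5.17 (3.99 to 6.79) at dpi2, where 2.46% of 11102 macrophage genes passed upwards, and at dpi4 it was 5.05 (3.34 to 7.89), where 0.961% of 12077 did. Monocyte levels were 3.54, 17.6, 2.57 and 0 CPM (96, 250, 1 and 0 UMIs), with a dpi2 ratio of 4.97 (3.91 to 6.36) where 1.96% of monocyte genes passed upwards. At dpi2 the UMIs lay in 50 macrophages of the control and 138 of KO, and thinned shares of macrophages with a UMI were 0.469%, 1.60%, 0.213% and 0.605% (unthinned 2.53%, 12.7%, 0.715% and 2.66%). T, NK and B cells had no Fpr1 UMI in any library, which in the NK cells of the dpi2 control allows up to 9.28 CPM and in the T cells of dpi2 KO up to 34.7 CPM.

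The clusters behind these Fpr1 values differed between the libraries. The Pdpn cluster, most of the dpi2 control macrophages, held 0.473 CPM. Within the Lyve1 cluster, the levels were 5.20 CPM (3.97 to 6.70) in the dpi2 control and 11.0 CPM (4.04 to 24.0) on 6 UMIs in dpi2 KO, with overlapping intervals. Among monocytes, the Plac8 and F10 clusters of the dpi2 control held 4.64 and 0.883 CPM and the Vcan cluster of dpi2 KO 17.5 CPM.

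Fpr2 followed, with less contrast. Reads of Fpr2 could be shared in part with the other members of the mouse formyl peptide receptor family, which are close copies. Macrophages held 4.72 CPM in the dpi2 control, 15.6 in dpi2 KO, 2.91 in the dpi4 control and 4.93 in dpi4 KO, so that dpi2 KO stood out, 3.30-fold (2.77 to 3.94) over its control, with a ratio at dpi4 of 1.69 (1.39 to 2.06). Monocytes held 41.3, 82.2, 33.4 and 105 CPM (1120, 1168, 13 and 45 UMIs), 1.99-fold (1.83 to 2.16) apart at dpi2, just under the rule, and 3.15-fold (1.67 to 6.36) at dpi4, where 1.68% of monocyte genes passed upwards. The dpi4 value rests on 43 and 55 monocytes. The 13 control UMIs lay in 5 cells and 37 of the 45 KO UMIs in 10 cells, which the interval does not cover. The dpi4 value was not past the rule when each library was clustered by itself, at Leiden resolution 2, or with at least 200 UMIs. Nor did it pass without the cells richest in neutrophil markers, which are described below. Neutrophils held 170, 177, 83.9 and 138 CPM, with a dpi2 ratio of 1.04 (0.893 to 1.21) and a 2.03-fold lower dpi4 level in the control.

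Neutrophil markers were higher in macrophages and monocytes of the KO-labelled library at dpi2, as Fpr1 and Fpr2 were, and lower there at dpi4, where macrophage Fpr1 and monocyte Fpr2 were higher. All 8 neutrophil markers were detected in macrophages, and their summed level was 103 CPM in the dpi2 control, 277 in dpi2 KO, 98.6 in the dpi4 control and 75.4 in dpi4 KO, against 55192, 78529, 35534 and 36265 CPM in neutrophils. In monocytes the sums were 242, 401, 195 and 98.2 CPM, with 8, 8, 7 and 3 of the 8 detected. Of the single markers in macrophages, S100a8 stood at 37.3 CPM in the dpi2 control and 134 in dpi2 KO, and Retnlg, the lowest of the 8, at 0.53 and 0.63 CPM. T cells of the same libraries, at 45.3 and 196 CPM of the sum, had no Fpr1 UMI. A 0 there allows up to 27.2 and 34.7 CPM, above the macrophage levels of Fpr1, so it cannot bear on them. Type 2 dendritic cells of the same libraries, at 176 and 614 CPM of the sum, held 0.587 and 0.332 CPM of Fpr1 (2 and 1 UMIs). The part of these transcripts in the macrophage and monocyte values was not tested beyond the following, which cannot bear on transcripts spread thinly over all cells. Without the 5% of macrophages, monocytes and dendritic cells of each library that were richest in these markers, an alternative added after the data had been seen, the dpi2 log2 ratio of Fpr1 was 2.44 in macrophages (2.37 with all cells) and 2.46 in monocytes (2.31), and that of Fpr2 in macrophages 1.67 (1.72). At dpi4 the macrophage Fpr1 value was 2.58 in place of 2.34, and the monocyte Fpr2 value was no longer past the size rule.

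Both receptors stood lower in macrophages at dpi4. Fpr1 was 4.07-fold lower at dpi4 in the control and 4.16-fold lower under the KO label, and Fpr2 3.16-fold lower under the KO label. At Leiden resolution 2 the control value of Fpr1 was lost (log2 ratio −0.07 in place of −2.02), and the dpi2 ratio between labels became larger (log2 4.31 for Fpr1 and 3.20 for Fpr2). With monocytes and macrophages pooled, the dpi2 log2 ratio was 2.25 for Fpr1 and 0.89, short of the rule, for Fpr2.

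Ccr7 (ENSMUSG00000037944; chromosome 11, 99144196 to 99155077, minus strand) was a receptor of mature dendritic cells. These few cells, 20, 20, 41 and 59 in number, held 3389 CPM in the dpi2 control (3108 to 3688), 3382 in dpi2 KO (3167 to 3607), 3034 in the dpi4 control (2875 to 3200) and 2760 in dpi4 KO (2618 to 2908). The intervals of the dpi2 levels overlapped, and both levels exceeded that of dpi4 KO with joint clustering. That order turned for dpi2 KO with each library clustered by itself (2675 CPM, against 2760 in dpi4 KO) and with mitochondrial shares up to 20% (2823 against 2832). Mature dendritic cells held 64.0%, 70.6%, 85.3% and 84.7% of all Ccr7 UMIs. Of these cells 100%, 100%, 97.6% and 93.2% had a UMI without thinning, and B cells, which also use Ccr7, held 212 to 599 CPM. Type 2 dendritic cells held 65.5, 79.4, 36.5 and 70.2 CPM, 1.21-fold (1.01 to 1.46) higher under the KO label at dpi2 and 1.92-fold (1.53 to 2.42) at dpi4.

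In macrophages Ccr7 was close to absent, and its ratios there rest on few cells. The levels were 0.554, 3.78, 1.30 and 0.648 CPM from 21, 114, 81 and 31 UMIs, in 7, 11, 45 and 25 cells. In dpi2 KO, 1 cell held 62 of the 114 UMIs and 10 cells held 113. KO over control ratios of 6.83 (4.26 to 11.5) for dpi2 and 0.496 (0.317 to 0.760) for dpi4 passed the size rule, but the interval treats UMIs as independent and does not cover such a concentration.

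**Figure D4:**
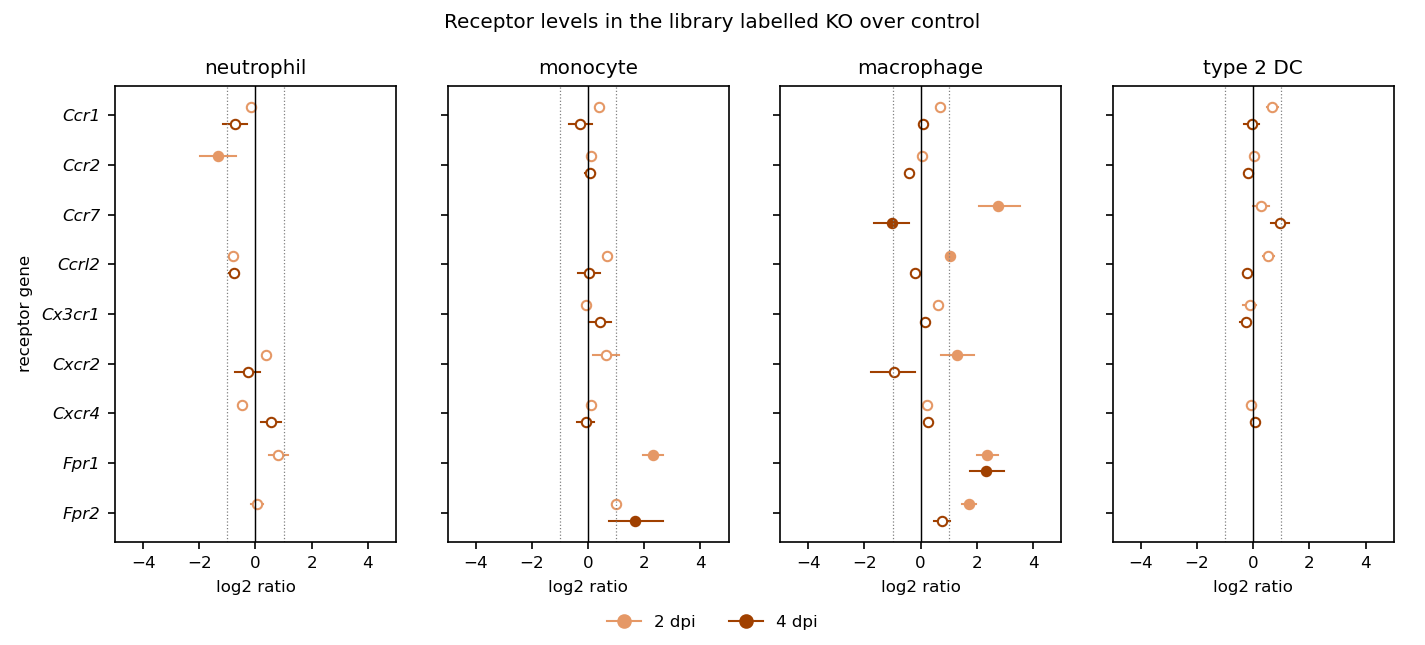
Log2 ratio of each receptor's CPM in the library labelled KO over control (x) at dpi2 (light) and dpi4 (dark), by class; bars are 95% intervals of counting error, filled circles pass the size rule, and dotted lines mark a 2-fold ratio. Pairs with under 50 UMIs over both libraries are not drawn; macrophage Fpr1 is filled at both times.

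Over the 4 classes, 7 of the 36 receptor and class pairs passed the size rule between the labels at dpi2 and 3 at dpi4. At dpi2, 6 were higher under the KO label, namely Ccr7, Ccrl2, Cxcr2, Fpr1 and Fpr2 in macrophages (2.46% of all genes passed upwards there) and Fpr1 in monocytes (1.96%), and Ccr2 in neutrophils was lower (6.76% downwards). No receptor was past the rule downwards in monocytes (2.87% of genes were) or macrophages (2.42%), or either way in type 2 dendritic cells (1.2% up and 1.43% down). The macrophage Cxcr2 value was 2.48 (1.67 to 3.75) on 39 and 77 UMIs, and it was not past the rule without the cells richest in neutrophil markers. At dpi4, Fpr1 in macrophages (0.961% of genes upwards) and Fpr2 in monocytes (1.68%) were higher and Ccr7 in macrophages was lower, where 1.77% of macrophage genes passed downwards. No receptor passed then in neutrophils (2.05% of genes up, 4.29% down), downwards in monocytes (2.21%) or upwards in type 2 dendritic cells (0.723%). The median log2 ratio of the 9 receptors in macrophages at dpi2 was 1.05, and that of all genes scored was −0.02. In monocytes it was 0.51 over 8 receptors scored (all genes 0.00), in neutrophils −0.17 over 7 (all genes −0.31), and in macrophages at dpi4 0.07 (all genes 0.02).

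**Figure D5:**
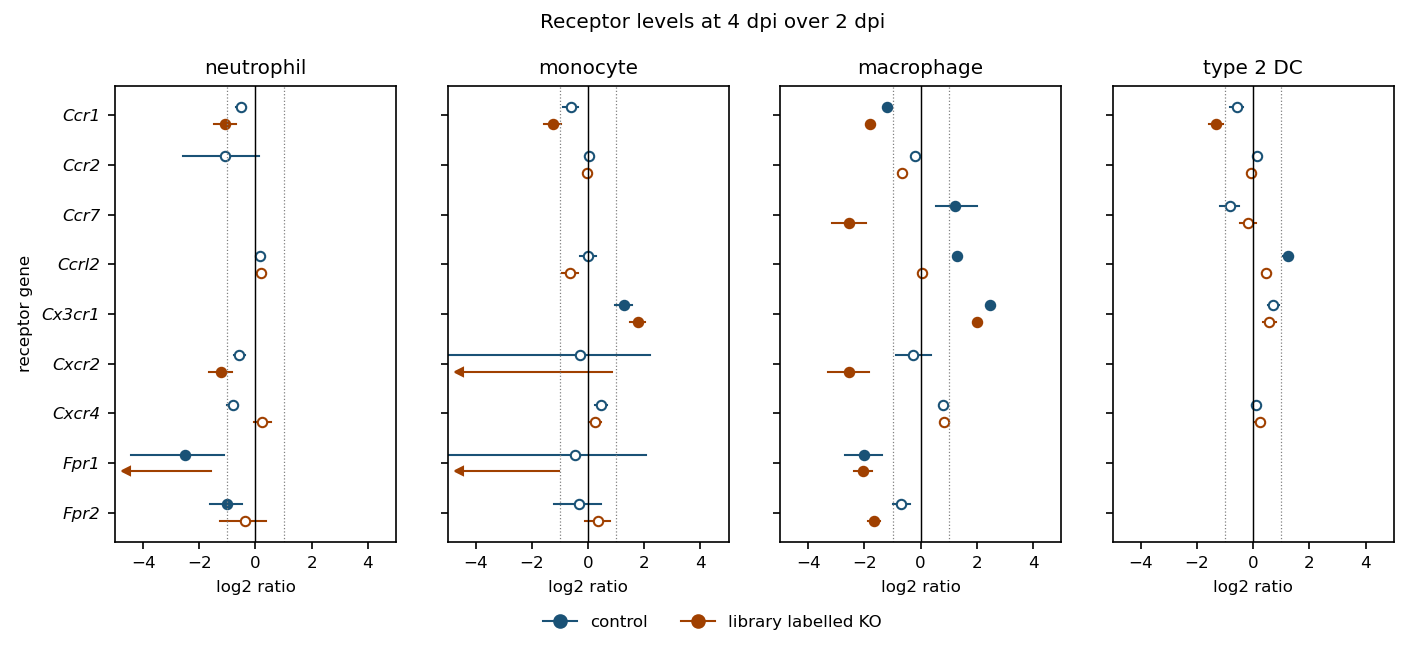
Log2 ratio of each receptor's CPM at dpi4 over dpi2 (x) in control (blue) and the library labelled KO (brown), by class; bars are 95% intervals of counting error, filled circles pass the size rule, and arrows mark a dpi4 library at 0. Cx3cr1 lies to the right in monocytes and macrophages of both labels, and Ccr1 and Fpr1 to the left in macrophages of both.

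With time, 9 pairs passed in the control, 5 higher and 4 lower, and 13 under the KO label, 2 higher and 11 lower. The 2 higher pairs under the KO label were Cx3cr1 in monocytes and in macrophages, and the same pairs were among the 5 of the control. The control and KO comparisons with time share no library, but whether they differ was not tested. In macrophages 5 of the 9 receptors were lower at dpi4 under the KO label (Ccr1, Ccr7, Cxcr2, Fpr1 and Fpr2), where 4.79% of all macrophage genes passed downwards. Of these, Ccr7 rests on the few cells described above. Neither Ccr7 nor Cxcr2 passed with at least 200 UMIs, and Cxcr2 did not pass without the cells richest in neutrophil markers. Ccr7, Cxcr2, Fpr1 and Fpr2 were also higher under the KO label at dpi2, and both comparisons use the dpi2 KO library. In the control 2 were lower (Ccr1 and Fpr1), against 6.41% of genes, and neither passed at Leiden resolution 2. In the control 3 were higher (Ccr7, Ccrl2 and Cx3cr1), of which Ccr7 did not pass with each library clustered by itself or as a mean over cells. Under the KO label 4.5% of neutrophil genes and 3.56% of monocyte genes passed downwards, where Ccr1, Cxcr2 and Fpr1 in neutrophils and Ccr1 and Fpr1 in monocytes did, and 2.93% of type 2 dendritic cell genes, where Ccr1 did. In the control no receptor passed downwards in monocytes (2.18% of genes) or type 2 dendritic cells (3.38%), and under the KO label none passed upwards in neutrophils (14.1%) or type 2 dendritic cells (3.86%).

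The ligands of these receptors, a list of 20 genes, were scored in the same way. In macrophages at dpi2, 6 of the 16 ligands scored passed upwards under the KO label and none downwards, where 2.46% of all genes passed upwards and 2.42% downwards; their median log2 ratio was 0.57. Cxcl3 and Ppbp, ligands of Cxcr2, stood at 8.34 CPM in the control and 56.0 in KO (6.72-fold) and at 15.1 and 130 CPM (8.59-fold), and Cxcl1 at 123 and 260 CPM (2.12-fold). Saa3, a serum amyloid A that Fpr2 binds, stood at 1.58 and 8.63 CPM (5.45-fold), and Ccl5, a ligand of Ccr1, at 3.27 and 12.4 CPM (3.80-fold). In neutrophils Cxcl3 stood at 39.6 and 926 CPM (23.4-fold, 18.1 to 30.7), while Ccl9, a ligand of Ccr1, was lower at 198 and 53.4 CPM. In monocytes 3 of 15 ligands passed upwards and 2 downwards (all genes 1.96% and 2.87%), among the latter the Ccr2 ligand Ccl12 with 426 CPM in the control and 178 in KO.

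At dpi4 the ligands stood lower in macrophages of both labels. The median log2 ratio with time was −1.11 in the control, with 2 of 16 past the rule upwards and 8 downwards (all genes 10.7% and 6.41%), and −2.41 under the KO label, with 0 and 11 (all genes 9.26% and 4.79%). Ccl2 and Ccl7, which draw Ccr2+ monocytes, stood at 2228 and 1852 CPM in macrophages of the dpi2 control and at 180 and 98.1 CPM at dpi4. At dpi4 itself none of 16 ligands in macrophages passed in either direction between the labels, and in type 2 dendritic cells 5 of 11 passed downwards under the KO label (Ccl6, Ccl9, Cxcl1, Cxcl2 and Anxa1), where 1.7% of genes did.

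Among 22 other chemoattractant receptors, Ltb4r1, the leukotriene B4 receptor, was higher under the KO label at dpi2 in 3 classes. It stood at 8.34 and 21.5 CPM in macrophages (2.58-fold, 2.25 to 2.96), 63.8 and 140 CPM in monocytes (2.20-fold) and 64.7 and 215 CPM in neutrophils (3.32-fold, where 2.49% of genes passed upwards). It was the 1 other receptor of the 9 scored in macrophages that passed at dpi2. The complement receptor C3ar1 was lower in neutrophils, at 40.3 and 13.2 CPM. At dpi4, Ccr3, the eotaxin receptor, was higher in macrophages under the KO label, at 1.11 and 8.40 CPM (7.56-fold, 5.84 to 9.90).

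The shared signalling genes downstream, 19 in all, moved little in macrophages. None of the 19 passed the size rule between the labels at dpi2, with a median log2 ratio of −0.08. In neutrophils 3 of 19 passed downwards under the KO label, where 6.76% of all genes did and the median log2 ratio of all genes was −0.31. All of them were Rgs genes, which end G-protein signals: Rgs1 at 230 and 67.0 CPM, Rgs10 at 180 and 75.9 CPM, and Rgs18 at 64.1 and 30.3 CPM. Rgs1 and Rgs10 in control neutrophils stood higher at dpi4, at 620 and 436 CPM, where 8.71% of genes passed upwards.

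The genes whose level tracked each receptor most closely were read over 21 points, each a class in a library. Points of a class share its markers, and the correlations across them are a description. Cxcr2 was most like Amer2 (Pearson r of log2 CPM 0.996), Gm17619 and Mrgpra2b, and Fpr2 like Hp (0.981), Trem3 and Gsr. Fpr1 was most like Lcn2 (0.961), Ccr1 like Pilra (0.969), and Ccrl2 like Clec5a (0.956) and Tnf (0.954). Ccr7 was most like Il4i1 (0.967), itself a marker used to name mature dendritic cells, Cx3cr1 like Cybb (0.918), Ccr2 like Tln1 (0.912) and Cxcr4 like Ptk2b (0.904). Among the receptors themselves the closest pair was Ccr1 and Ccrl2 (0.89), Ccr2 and Cx3cr1 reached 0.44, and Ccr2 and Cxcr2 ran opposite (−0.57).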

How the data were processed

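CD45+ cells of injured tibialis anterior muscle were profiled by 10x single-cell RNA-seq in 4 libraries, 1 per genotype label and time. The authors deposited raw UMI counts per gene and cell barcode, made with Cell Ranger 6.1.2 on mm10 per the labels' processing notes and the study's methods; the labels and the methods name different chemistry versions. Barcodes with at least 500 genes and under 10% mitochondrial UMIs were kept, and doublets were removed by Scrublet score at a rate of 0.8% per 1000 cells. These steps replace the study's own filters and cell annotation, which were not used here, so class names may differ from the study's. Cells were clustered jointly (scanpy 1.11.5, 2000 variable genes, 30 principal components, 15 neighbours, Leiden resolution 1, leidenalg 0.10.2), with the 70 receptor, ligand and signalling genes held out, giving 36 clusters, and named from 87 marker genes, of which 85 matched; the scoring of clusters was settled after the clusters, not the receptors, had been seen. UMIs were summed per class and library. Levels carry exact Poisson intervals, ratios exact conditional binomial intervals and shares exact Clopper-Pearson intervals (scipy 1.17.1), at 95%; PCR and cell-to-cell spread are not covered. The size rule was also run on simulated data. Of 200 genes changed in simulated macrophages at dpi2 97.0% were recovered over 11109 genes, and of 200 in simulated neutrophils 87.0% over 5680. Of the unchanged genes 0.05% and 0.33% passed. Recovery is not given by size of fold, and how the rule behaves under cell-to-cell spread was not tested. Likeness was Pearson's r of log2(CPM + 10) over classes with at least 50 cells and 100000 UMIs, for genes of at least 200 UMIs. There were 12 alternatives planned and 3 added later; edgeR 4.0.16 gave TMM factors only. The receptors and the gene lists were chosen with earlier results of these data known. The 9 receptors, the 3 likest genes of each, and the list genes past the size rule could be named; not all are. A few items, among them 1 macrophage cluster, are not reported here. Libraries held 57010520 to 80228489 UMIs in 4177 to 6602 barcodes.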

Additional observations from a re-analysis of the deposited data

Results flagged for a closer look

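For 6 receptor and class pairs the log2 ratio of the library labelled KO over control had opposite signs at dpi2 and dpi4 with both 95% counting intervals clear of 0; pairs that changed sign with an interval reaching 0 are not listed. With 1 library per group the difference between the times was not tested in any of them. In macrophages, Ccr2 went from 0.04 at dpi2 to −0.42 at dpi4, and Ccr7 from 2.77 to −1.01, the latter on the few cells described above. Ccrl2 in macrophages went from 1.05 to −0.20, and in type 2 dendritic cells from 0.54 to −0.23. Cxcr2 in macrophages went from 1.31 to −0.96 on at most 77 UMIs a library. Cxcr4 in neutrophils went the other way, from −0.49 to 0.56.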

How the results depend on the processing

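Between the labels 7 receptor and class pairs passed the size rule at dpi2 and 3 at dpi4, and with time 9 in the control and 13 under the KO label. These counts moved by over 1.5 times under few of the alternatives. With each library clustered by itself 8 pairs passed at dpi4 between the labels; with at least 200 UMIs 4 passed at dpi2 and 0 at dpi4; with monocytes and macrophages pooled 3 passed at dpi2; with the unnamed cluster added to the neutrophils 5 passed at dpi4. At 1.5-fold the counts were 15 at dpi2, 8 at dpi4 and 16 with time in the control. Under the alternatives run no call took the opposite sign. Fpr1 in macrophages passed at dpi2 under every alternative run and at dpi4 under all but the 200 UMI minimum. Ccr7 in macrophages at dpi4 was lost under 6 settings, with a log2 ratio of −0.07 without doublet removal against −1.01, and at dpi2 its log2 ratio ranged from 2.26 to 4.57. Ccr1 and Cxcr2 in neutrophils under the KO label lost their calls with time as a mean over cells and with the unnamed cluster. With each library clustered by itself, Ccr2 in monocytes had a log2 ratio of 1.52 at dpi4 between the labels in place of 0.07. TMM factors shifted neutrophil ratios by 0.38 at dpi2 between the labels and by −0.40 and −0.72 with time; there Ccr2 lost its dpi2 call and Fpr1 gained one (log2 1.18). The cause of these shifts was not tested. No paired analysis was possible because each group held 1 library. Depth limits the dpi4 neutrophils and monocytes most, with 35 to 129 cells a library.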

Other observations

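Cxcr4 in type 1 dendritic cells, a class outside the 4 compared, stood at 47.8 CPM in the dpi2 control, 52.4 in dpi2 KO, 62.2 in the dpi4 control and 140 in dpi4 KO. The dpi4 KO library was the high one, 2.25-fold (1.56 to 3.29) over its control and 2.67-fold (1.63 to 4.6) over dpi2 KO, on 53 cells against 47 and 18. The share of these cells with a UMI at dpi4 was 47.2% in KO and 42.6% in the control, with cells thinned to 2000 UMIs 11 of 50 cells and 8 of 47, and thinned to 1000 UMIs 3.77% and 8.51%, the opposite order.

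Within T cells at dpi4 Ccr2 was higher in the sub-cluster led by Cd3g, Cd163l1 and Icos, of which Cd163l1 is known from gamma-delta T cells, and this sub-cluster held 969 CPM (730 to 1261; 55 UMIs in 15 cells) in the dpi4 control and 810 CPM (597 to 1074; 48 UMIs in 17 cells) in dpi4 KO. The other T sub-cluster held 140 CPM (88.7 to 210.02; 23 UMIs in 25 cells) and 328 CPM (247 to 425; 56 UMIs in 34 cells).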
